A study of Mus musculus with 54 samples.

Results

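The genes followed here were 10 genes of smooth muscle and the contractile apparatus, Acta2, Actg2, Tagln, Cnn1, Cald1, Tpm1, Tpm2, Myh11, Myl9 and Mylk. They were found by symbol among the 25149 genes of the coding count and TPM tables, and each was present. CD-1 mice of 14 to 16 days of age gave the follicles, which were cultured in alginate for 8 days and then spent 12 h in maturation medium with fetal bovine serum, EGF and recombinant FSH. In the post-hCG groups this medium also held human chorionic gonadotropin (hCG), the hormone that stands in for the luteinizing hormone surge. Each follicle wall was microdissected, and the 54 libraries comprised 15 putative unruptured and 14 putative ruptured sides without hCG, and 12 unruptured and 13 ruptured sides post-hCG. Without hCG the sides were assigned by morphology, which is why they are called putative. By its labels the tissue was cumulus-oocyte complex, but the study's methods state that these complexes were discarded and the follicle sides were sequenced. The sources used here do not tell which sides came from the same follicle or animal, so p-values measure the spread between these libraries.

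Smooth muscle contracts when calcium and calmodulin activate the myosin light chain kinase encoded by Mylk, which phosphorylates the regulatory light chain encoded by Myl9 on the heavy chain encoded by Myh11. The myosin pulls on filaments of the actins encoded by Acta2 and Actg2, and tropomyosins (Tpm1, Tpm2), caldesmon (Cald1), calponin (Cnn1) and transgelin (Tagln) bind to these filaments. In the ovary such cells are known from the outer theca and from the walls of blood vessels, and many of these genes are bound by serum response factor (SRF) at a short sequence called the CArG box.

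Total counts ranged from 1497138 to 2834794 per library (median 2157135). In the GENCODE annotation of GRCm38 the actin genes were Acta2 on chromosome 19 (34241090 to 34255590, minus strand) and Actg2 on chromosome 6 (83512905 to 83536265, minus strand). The genes of filament-binding proteins were Tagln on chromosome 9 (45929619 to 45936058, minus strand), Cnn1 on chromosome 9 (22099216 to 22109630, plus strand), Cald1 on chromosome 6 (34598500 to 34775473, plus strand), Tpm1 on chromosome 9 (67022590 to 67049406, minus strand) and Tpm2 on chromosome 4 (43514711 to 43523765, minus strand). The genes of the myosin and its kinase were Myh11 on chromosome 16 (14194535 to 14291372, minus strand), Myl9 on chromosome 2 (156775420 to 156781658, plus strand) and Mylk on chromosome 16 (34745210 to 35002420, plus strand). The count of Acta2 was not whole in 54 of 54 libraries, and how reads that fit several actin genes were divided is not given in the sources used here, so its level is uncertain to that extent. Exons of Tagln overlap those of Pcsk7 on the opposite strand, exons of Mylk overlap antisense genes, and without strand the reads of such partners cannot be told apart. Putative unruptured 1 and 7, putative ruptured 12 and unruptured 4 stood apart by markers of other cells. Oocyte markers summed to 155 TPM in putative unruptured 1 and 23.9 TPM in putative ruptured 12, against group medians of 0.13 and 0.055 TPM. Stroma markers summed to 2789 TPM in putative unruptured 7 and 1362 TPM in unruptured 4, against medians of 547 and 311 TPM. Other libraries were also high in a marker list and were kept where these 4 were left out. Immune markers summed to 164 TPM in putative unruptured 2, against a median of 33.9 TPM. Theca-defining markers (listed below) summed to 192 TPM in putative ruptured 11, against a median of 8.91 TPM.

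Promoters of 7 of the 10 members were in the RefSeq table used here (GRCm38.p6, 250 bases before to 50 bases after each start). The CArG box was searched in its 10-base form, which reads alike on both strands. It was found in 1.63% of 32851 promoters, and among the members in that of Myl9. With 1 mismatch allowed in its AT-rich core, it was found in 9.98% of promoters, and among the members in those of Acta2 and Myl9. These promoters are shown because Acta2 and Myl9 had the largest differences with hCG among the members. Capitals mark the matches, counted from the start used by the RefSeq table. They begin 161 bases (exact) and 99 bases (with a mismatch) upstream of the Myl9 start. For Acta2 they begin 84 and 34 bases upstream (both with a mismatch). These starts differ from the GENCODE gene bounds given above, so the distances hold for the RefSeq starts only. A match describes the letters of this window and is no evidence of binding.
Acta2, chr19:34255324-34255623, minus strand: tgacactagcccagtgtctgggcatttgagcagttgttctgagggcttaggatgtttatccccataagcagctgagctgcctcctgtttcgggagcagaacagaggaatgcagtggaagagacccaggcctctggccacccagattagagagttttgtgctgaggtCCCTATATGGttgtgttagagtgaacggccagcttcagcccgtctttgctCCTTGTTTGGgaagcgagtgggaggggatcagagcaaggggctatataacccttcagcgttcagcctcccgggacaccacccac
Myl9, chr2:156775214-156775513, plus strand: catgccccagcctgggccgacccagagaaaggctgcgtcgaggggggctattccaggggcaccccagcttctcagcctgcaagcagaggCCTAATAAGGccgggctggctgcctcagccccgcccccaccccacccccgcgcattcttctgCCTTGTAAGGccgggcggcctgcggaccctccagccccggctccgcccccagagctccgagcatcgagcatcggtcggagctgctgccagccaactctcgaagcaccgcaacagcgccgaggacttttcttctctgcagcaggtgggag

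Tpm1 had the highest TPM of the members in each of the 4 groups, and took a median of 70.7% of their summed TPM in putative unruptured and 80.3% in ruptured libraries. The summed TPM of the 10 members was 312 (70.0 to 512) in putative unruptured, 73.2 (38.6 to 293) in putative ruptured, 112 (93.5 to 214) in unruptured and 80.3 (44.8 to 102) in ruptured libraries, as the median and range. The order below Tpm1 changed between groups. Acta2 was the second most abundant member on the putative unruptured side (median 29.1 TPM) and the sixth among ruptured libraries (median 0.87 TPM).

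Of the genes taken as defining for differentiated smooth muscle, Myh11 and Cnn1 were at or near 0, and Actg2 was low. Myh11, the smooth muscle myosin heavy chain, had 19 counts over all libraries and was at 0 in 45 of them. It had no count in the ruptured libraries, which allows a level of up to 0.103 CPM (counts scaled to library size) over the group, counting error only. Cnn1 had 8 counts in all and was at 0 in 47 libraries. Actg2, the enteric smooth muscle actin, reached at most 3.79 TPM, with group medians from 0.77 to 1.52 TPM. The label smooth muscle thus had little RNA of its defining markers behind it, and the members are called contractile genes here. No fold change is given for Myh11 or Cnn1. In whole pieces of tissue, fewer cells of a type and less RNA per cell cannot be told apart.

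**Figure D1:**
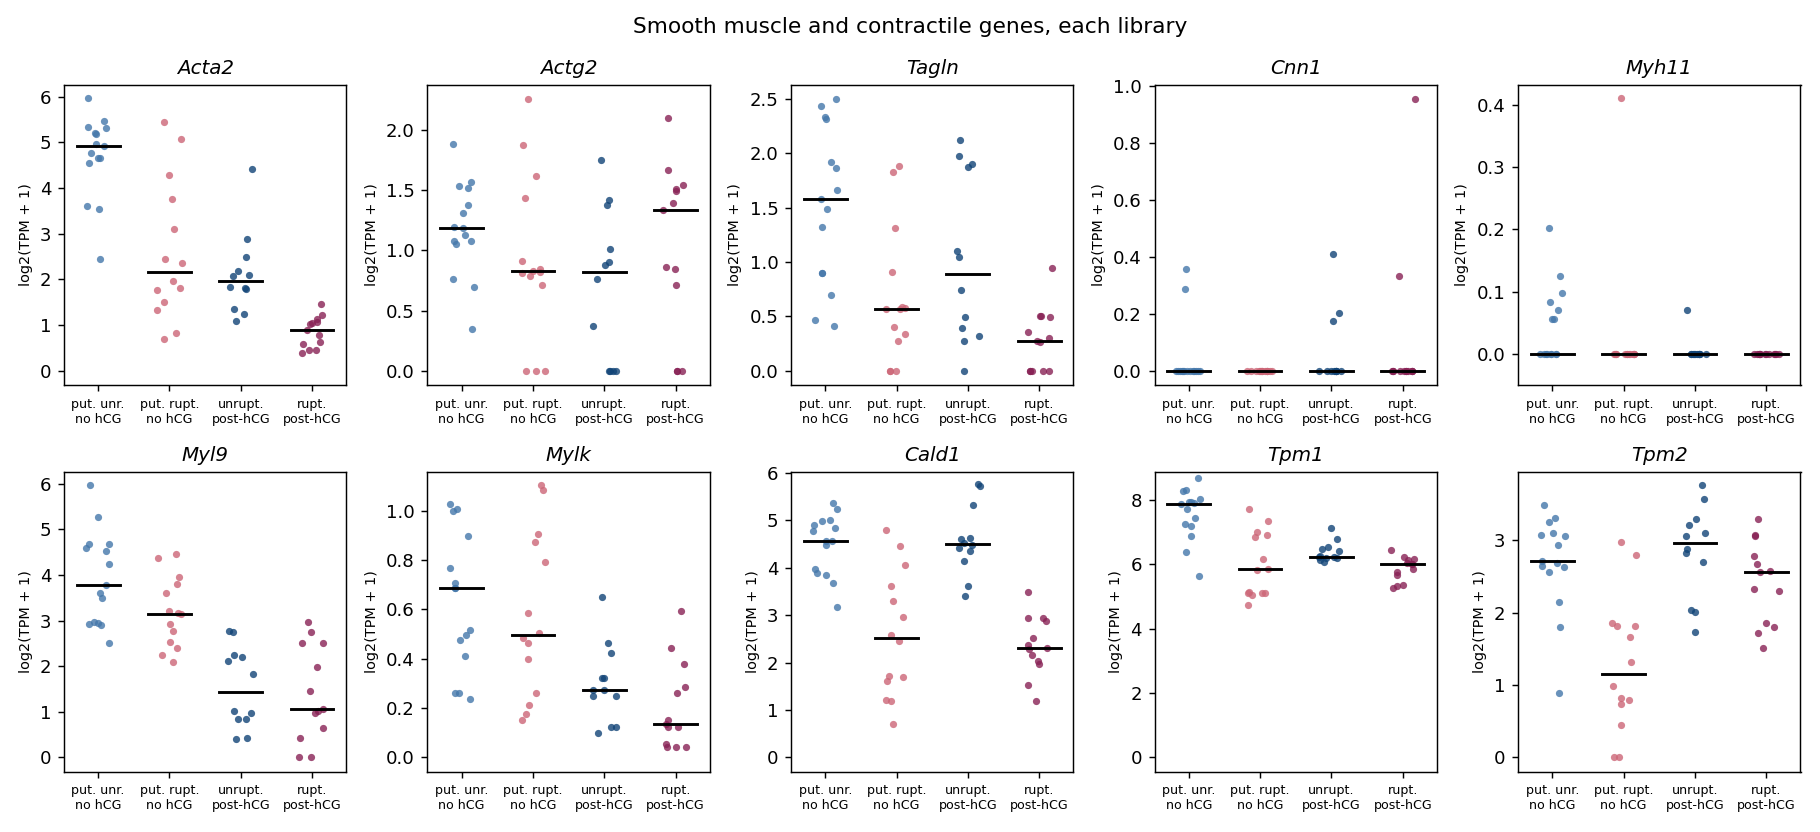
Level of each of the 10 members as log2(TPM + 1), by group. Each point is 1 library, the line is the group median, and the vertical axis differs between panels. Acta2 has medians of 29.1, 3.53, 2.90 and 0.87 TPM on the putative unruptured, putative ruptured, unruptured and ruptured side, and Myh11 and Cnn1 lie at 0 in most libraries.

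The first comparison asked how the sides differed in the absence of hCG. Acta2, Myl9, Tpm1, Tpm2 and Cald1 were lower on the putative ruptured side, 5 of the 6 members that passed the expression filter, against 8.96% of 9063 genes tested (edgeR quasi-likelihood test with Benjamini-Hochberg adjustment, FDR under 0.05, as in all comparisons below). A gene can pass the filter through the group where it is high, so this count and those of the later comparisons are descriptions. Acta2, smooth muscle alpha-actin, ranged from 4.46 to 62.1 TPM (median 29.1) in putative unruptured libraries, compared with 0.61 to 42.7 TPM (median 3.53) in putative ruptured ones. The ranges overlapped, although 12 of the 14 latter libraries were under the median of the former. Acta2 was 2.89-fold lower (log2FC -1.53 ± 0.48, FDR 0.023), and no longer passed the test without putative unruptured 10, its highest library (log2FC -1.31).

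Tpm1, a tropomyosin, ranged from 48.8 to 411 TPM (median 235) compared with 25.7 to 212 TPM (median 56.5). It was 2.77-fold lower (log2FC -1.47 ± 0.31, FDR 0.000886), with 14 of 14 putative ruptured libraries under the other median. Cald1, which restrains actin-activated myosin, ranged from 8.0 to 40.2 TPM (median 22.7) against 0.64 to 26.9 TPM (median 4.74). It was 2.75-fold lower (log2FC -1.46 ± 0.34, FDR 0.00271), and the groups overlapped. Tpm2, a second tropomyosin of muscle, ranged from 0.85 to 10.3 TPM (median 5.58) against 0 to 6.87 TPM (median 1.24) and was 3.09-fold lower (log2FC -1.63 ± 0.4, FDR 0.00369).

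Among the myosin genes, Myl9 ranged from 4.68 to 61.4 TPM (median 12.7) compared with 3.27 to 21.1 TPM (median 7.90), and was 2.21-fold lower (log2FC -1.14 ± 0.3, FDR 0.00613). The groups overlapped, with 10 of 14 putative ruptured libraries below the other median. Myl9 did not pass with limma on log2(TPM + 1) or log2(TPM + 0.1), with log2FC -0.75 and -0.81 (FDR 0.131 in both). Mylk, at 0.18 to 1.04 TPM (median 0.61) and 0.11 to 1.15 TPM (median 0.41), did not pass the test (log2FC -0.51 ± 0.27, FDR 0.213). Tagln and Actg2 were too low for the filter and were fitted without it, where 4.55% of 20998 genes were lower. Tagln, an actin-bundling protein and early marker of smooth muscle, ranged from 0.33 to 4.67 TPM (median 1.99) against 0 to 2.68 TPM (median 0.48) and was 3.45-fold lower (log2FC -1.79 ± 0.45, FDR 0.00843). Actg2 did not pass (log2FC -0.54 ± 0.4, FDR 0.445).

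These side differences were not called within a single row of the plate. In row G, which held 5 libraries of each side, 0 of 6 members passed the edgeR test, 1 of them, Myl9, had an unadjusted p under 0.05, and 3 of 9068 genes passed in all. The log2FC there was -0.46 ± 0.79 for Acta2, -0.6 ± 0.54 for Cald1, -0.56 ± 0.52 for Tpm1, -1.31 ± 0.65 for Tpm2 and -0.71 ± 0.32 for Myl9, with the sign of the full comparison in each. The other rows without hCG held 1 side only, row F the putative unruptured and row H the putative ruptured. With the 4 libraries that stood apart left out, Acta2 had log2FC -1.72 (FDR 0.0195), and 4 of 5 members that then passed the filter were called.

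The second comparison asked how the sides differed after hCG. Cald1 and Tpm1 were lower on the ruptured side, 2 of 3 members that passed the filter, against 11.3% of 8585 genes tested. Cald1 ranged from 9.56 to 53.7 TPM (median 21.7) in unruptured libraries, compared with 1.28 to 10.2 TPM (median 3.99) in ruptured ones. The groups met only at their edges, with 12 of 13 ruptured libraries below the lowest unruptured library. Cald1 was 3.69-fold lower (log2FC -1.88 ± 0.22, FDR 2.22e-07), and within plate row C, which held 4 unruptured and 5 ruptured libraries, log2FC was -1.87 ± 0.19 (FDR 7.32e-06). Tpm1 ranged from 66.7 to 139.8 TPM (median 75.0) against 37.9 to 86.3 TPM (median 63.8) and was 1.24-fold lower (log2FC -0.31 ± 0.11, FDR 0.0394). Tpm1 did not pass within row C (log2FC -0.19, FDR 0.465), without the libraries that stood apart (log2FC -0.23, FDR 0.095), or in 10 of 25 fits that each left out 1 library. Tpm2 had log2FC -0.53 ± 0.23 (FDR 0.103).

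Acta2 was too low for the filter post-hCG, with 1.12 to 20.5 TPM (median 2.90) in unruptured libraries and 0.31 to 1.74 TPM (median 0.87) in ruptured ones. All 13 ruptured libraries lay below the unruptured median, and 10 lay below the lowest unruptured library. Fitted without the filter, where 6.34% of 20349 genes were lower, Acta2 was 4.33-fold lower (log2FC -2.11 ± 0.38, FDR 9.5e-05) and passed in 25 of 25 fits that each left out 1 library. Without unruptured 5, which held 38.4% of the Acta2 counts of its group, log2FC was -1.58. The ruptured libraries held 2.01 to 8.48 counts of Acta2 each. Tagln (-1.0 ± 0.51), Mylk (-0.71 ± 0.37), Myl9 (-0.23 ± 0.47) and Actg2 (0.66 ± 0.54) did not pass the test, each as log2FC ± SE.

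The third comparison asked what differed on the unruptured side when hCG was present. Libraries post-hCG stood in plate rows B, C and D and those without hCG in rows F, G and H, so medium and plate row cannot be told apart here or in the next comparison. Acta2, Myl9, Mylk and Tpm1 were lower post-hCG, 4 of 6 members that passed the filter, against 27.7% of 9320 genes tested. Myl9 and Mylk had medians of 1.985 and 5 counts post-hCG. They passed the filter largely through the libraries without hCG, so this count is a description. Myl9 ranged from 4.68 to 61.4 TPM (median 12.7) without hCG and from 0.33 to 5.85 TPM (median 1.80) with it. It was 9.69-fold lower (log2FC -3.28 ± 0.44, FDR 2.09e-07), and 14 of 15 libraries without hCG lay above the highest library post-hCG. Acta2 had medians of 29.1 and 2.90 TPM and was 7.03-fold lower (log2FC -2.81 ± 0.39, FDR 3.22e-07). The Acta2 ranges overlapped, with 9 of 12 unruptured libraries below the lowest library without hCG.

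Tpm1 had medians of 235 and 75.0 TPM and was 2.66-fold lower (log2FC -1.41 ± 0.22, FDR 1.77e-06). Mylk, at medians of 0.61 and 0.21 TPM, was 2.31-fold lower (log2FC -1.2 ± 0.28, FDR 0.000483). For both genes all 12 unruptured libraries lay below the median without hCG. Cald1 and Tpm2 did not pass the test. Cald1 had medians of 22.7 and 21.7 TPM (log2FC -0.01 ± 0.22, FDR 0.967), and Tpm2 of 5.58 and 6.86 TPM (log2FC 0.16 ± 0.25, FDR 0.61). Without the filter, where 15.9% of genes were lower, Tagln ranged from 0.33 to 4.67 TPM (median 1.99) without hCG and from 0 to 3.35 TPM (median 0.865) with it, and was 4.46-fold lower in the edgeR fit (log2FC -2.16 ± 0.41, FDR 6.71e-05). With limma on log2(TPM + 1) and log2(TPM + 0.1) it did not pass, with log2FC -0.5 (FDR 0.146) and -1.02 (FDR 0.108). Actg2 did not pass in the edgeR fit (log2FC -1.11 ± 0.44, FDR 0.0522).

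The fourth comparison made the same contrast on the ruptured side. Of the 2 members that passed the filter, Cald1 (log2FC -0.43 ± 0.36, FDR 0.318) and Tpm1 (log2FC -0.25 ± 0.26, FDR 0.424), 0 passed the edgeR test and 0 had an unadjusted p under 0.05, against 30.4% of 8531 genes that were lower. Without the filter 3 of 10 members were lower and 1 was higher, against 17.8% of 20569 genes lower and 15.9% higher, and DESeq2 gave 3 and 1. Acta2 ranged from 0.61 to 42.7 TPM (median 3.53) without hCG and from 0.31 to 1.74 TPM (median 0.87) post-hCG. It was 10.5-fold lower (log2FC -3.39 ± 0.57, FDR 5.56e-06), with all 13 ruptured libraries below the other median, and putative ruptured 5 held 35.7% of the counts of its group. Myl9 ranged from 3.27 to 21.1 TPM (median 7.90) against 0 to 6.84 TPM (median 1.08) and was 5.13-fold lower (log2FC -2.36 ± 0.3, FDR 1.71e-08).

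Mylk, at medians of 0.41 and 0.1 TPM, was 2.64-fold lower (log2FC -1.4 ± 0.36, FDR 0.00198). Tpm2 was the member that rose, from 0 to 6.87 TPM (median 1.24) to 1.86 to 8.85 TPM (median 4.91), or 2.41-fold (log2FC 1.27 ± 0.38, FDR 0.0085). All 13 ruptured libraries lay above the putative ruptured median of Tpm2, though the ranges overlapped. Tagln (log2FC -1.38 ± 0.6, FDR 0.0742) and Actg2 (log2FC 0.09 ± 0.5, FDR 0.917) did not pass. In none of the 4 comparisons were the TPM ranges of any of the 10 members separate, while the share of tested genes with separate ranges, lower in the second group, was 0% between the sides without hCG, 1.03% between the sides post-hCG, 1.45% with hCG on unruptured and 4.34% on ruptured sides. The shares of genes with separate and higher ranges were 0.0331% and 0.151% between the sides without and with hCG.

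**Figure D2:**
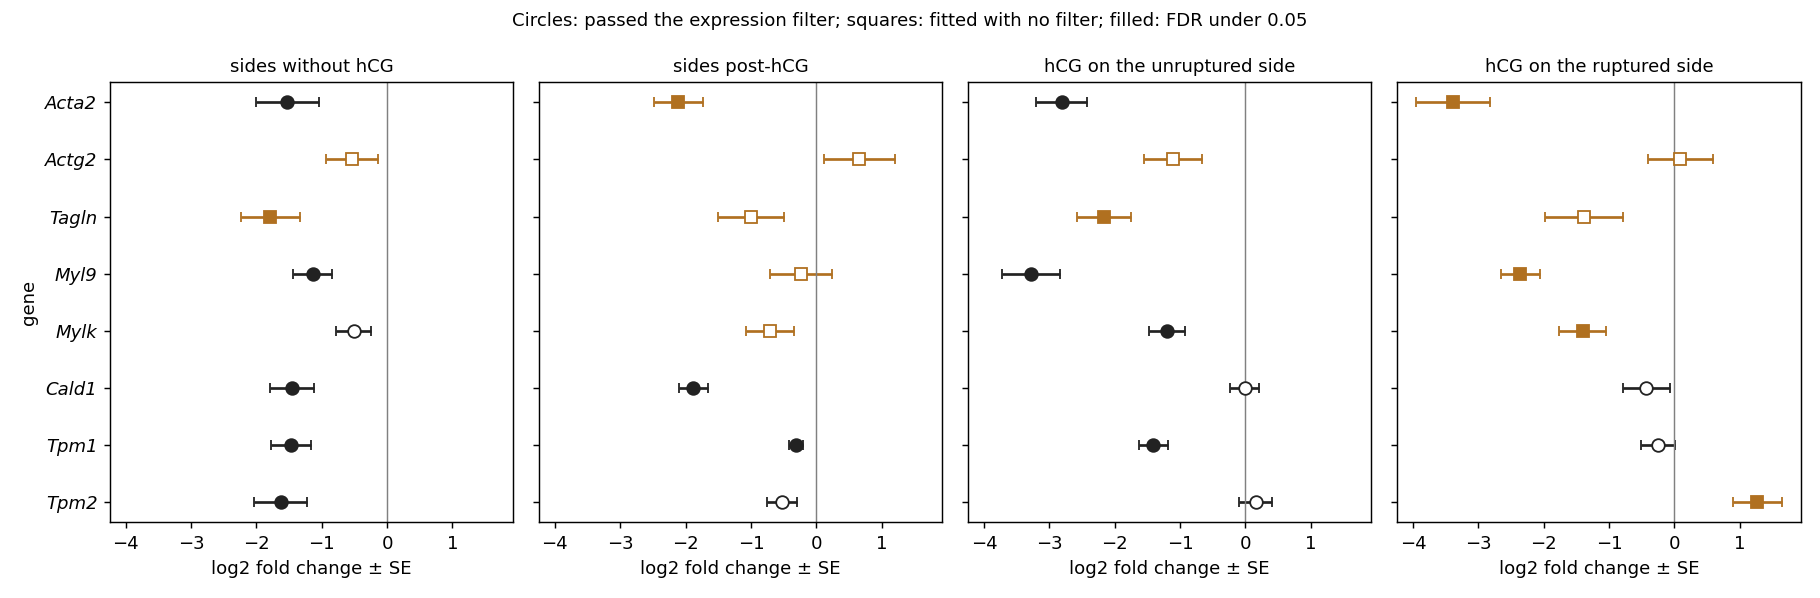
Fitted log2 fold change (± SE) of the members in the 4 comparisons, where a negative value is lower on the ruptured side or post-hCG, with calls at an FDR of 0.05 marked. Myl9 lies at -3.28 with hCG on the unruptured side, where Cald1 lies at -0.01, and Cald1 lies at -1.88 between the sides post-hCG.

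The side difference was then compared between the media. It differed for Tpm1, with an interaction of 1.17 ± 0.35 on the log2 scale (FDR 0.0248), 1 of 6 members that passed the filter, against 4.25% of 10013 genes tested. The side difference of Tpm1 was -1.47 without hCG and -0.31 post-hCG. The interaction did not pass with libraries scaled by their totals alone (1.04, FDR 0.0507), or with limma on log2(TPM + 1) (1.04, FDR 0.0669) and on log2(TPM + 0.1) (1.05, FDR 0.0674). The interactions of Acta2 (-0.6 ± 0.76), Cald1 (-0.41 ± 0.43), Myl9 (0.9 ± 0.63), Mylk (-0.21 ± 0.44) and Tpm2 (1.1 ± 0.48) did not pass. With the 4 libraries that stood apart left out, that of Tpm2 was 1.5 (FDR 0.0361).

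Members were next set against relatives of the same gene family, as the log2 ratio of (TPM + 1) within a library. This ratio depends on scaling between libraries only through the pseudocount of 1. Values are per gene, so muscle and non-muscle isoforms of the same gene were not separated. Of 23 tests of a pair in a comparison, the ratio was lower in 10 and higher in 2 (two-sided permutation tests with 100000 resamples, adjusted over these tests). Acta2 over the cytoplasmic actin Actb had a mean of -8.63 ± 0.89 (SD, n = 15) in putative unruptured, -10.67 ± 1.57 (n = 14) in putative ruptured, -11.29 ± 0.86 (n = 12) in unruptured and -12.3 ± 0.23 (n = 13) in ruptured libraries. It was lower in all 4 comparisons, with differences of -2.04 between the sides without hCG (permutation test, adjusted p = 0.000997), -1.01 between the sides post-hCG (adjusted p = 0.000172), -2.67 with hCG on the unruptured side (adjusted p = 0.000115) and -1.63 on the ruptured side (adjusted p = 0.000997). Ruptured libraries held 0.31 to 1.74 TPM of Acta2. At that level the pseudocount of 1 narrows the spread of the ratio and the differences that involve these libraries. The same limit applies to other members at few TPM, among them Tagln, Myl9 post-hCG and Tpm2 on the putative ruptured side.

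Myl9 over Myl12a, a light chain of non-muscle myosin, differed with hCG by -2.0 on unruptured (adjusted p = 0.000153) and -1.37 on ruptured sides (adjusted p = 0.00135). Tagln over Tagln2 differed by -1.98 with hCG on the unruptured side (adjusted p = 0.000115), where Tagln2 itself rose (log2FC 1.25 ± 0.17, FDR 2.93e-07). The mean log2(TPM + 1) of Tagln alone was 1.52 in putative unruptured and 1.02 in unruptured libraries. Putative ruptured sides had lower ratios of Tpm1 to Tpm3 and of Tpm2 to Tpm4, with differences of -0.88 (adjusted p = 0.00987) and -0.87 (adjusted p = 0.00915). Post-hCG their side differences were -0.0224 (adjusted p = 0.932) and -0.17 (adjusted p = 0.517). The ratio of Actg2 to Actg1 was higher on the ruptured side post-hCG by 0.87 (adjusted p = 0.00378) and with hCG on the ruptured side by 0.67 (adjusted p = 0.0256), at no more than 4 counts of Actg2 per ruptured library. Actg1 itself was lower in both comparisons (log2FC -0.34 ± 0.12, FDR 0.0429, and log2FC -0.42 ± 0.12, FDR 0.00319), and Actg2 passed the test in neither. Of the relatives, 3 of 13 tested were lower on the putative ruptured side against 8.96% of all tested genes, which were Cnn2 (log2FC -1.45 ± 0.33, FDR 0.00219), Tpm3 (log2FC -0.66 ± 0.12, FDR 0.000279) and Tagln2 (log2FC -0.62 ± 0.21, FDR 0.0346).

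**Figure D3:**
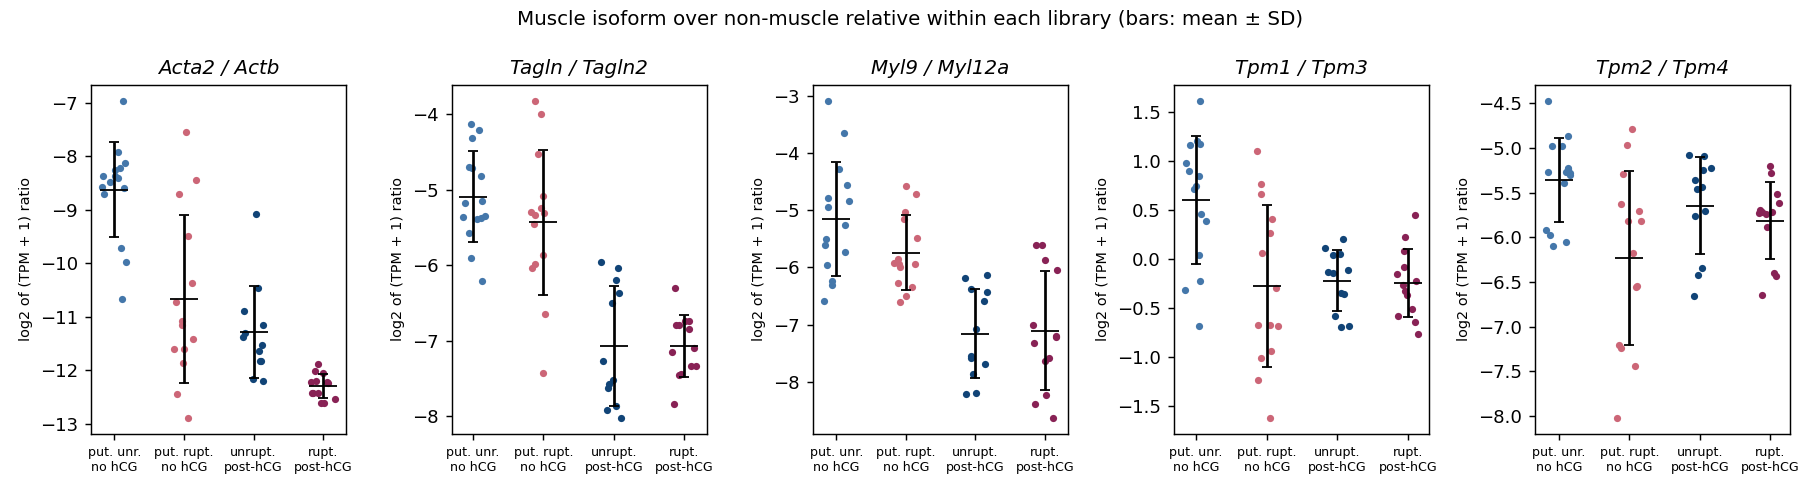
Log2 ratio of (TPM + 1) of members to a relative of the same gene family, by group, where each point is 1 library and the bars give the mean ± SD. The mean ratio of Acta2 to Actb lies at -8.63 in putative unruptured and -12.3 in ruptured libraries.

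Whether members varied together between libraries of the same group was examined as the correlation of log2 CPM with Acta2, for 5 members in 4 groups. Each of the 20 values of r was above 0, 8 passed by Pearson's r and 4 by Spearman's rho (permutation tests with 100000 resamples, adjusted over these relations). On the log2(TPM + 1) scale 2 passed. Without the 2 libraries farthest from the Acta2 median, r fell below 0 for some relations that had not passed. These were Tpm2 on the unruptured side (-0.0391) and Myl9 on the ruptured (-0.149) and putative unruptured (-0.00784) sides. On the putative ruptured side (n = 14) Acta2 and Cald1 had r = 0.897 (permutation p = 1e-05, adjusted p = 0.0002) and rho = 0.833 (permutation p = 0.00042, adjusted p = 0.0042), where 1e-05 is the smallest p the permutation test can give. Acta2 and Tpm1 had r = 0.892 (permutation p = 2e-05, adjusted p = 0.0002) and rho = 0.859 (permutation p = 0.00015, adjusted p = 0.003) by the same permutation test. Without the 2 libraries farthest from the Acta2 median r was 0.828 and 0.786, and within plate row H (9 libraries) it was 0.825 and 0.830. Putative ruptured 1 and 5, both in row G, held the most Acta2, Cald1 and Tpm1 of this group.

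On the ruptured side (n = 13) Acta2 and Tpm2 had r = 0.786 (permutation p = 0.00167, adjusted p = 0.0111) and rho = 0.725 (permutation p = 0.00646, adjusted p = 0.0323), and r was 0.675 without the 2 farthest libraries and 0.789 in row D. Acta2 and Cald1 had r = 0.705 (permutation p = 0.00646, adjusted p = 0.0323) and rho = 0.769 (permutation p = 0.00276, adjusted p = 0.0184), and r was 0.518 without the 2 farthest libraries and 0.720 in row D. Ruptured libraries held 2.01 to 8.48 counts of Acta2 and 6 to 22 of Tpm2 each, so these relations rest on few counts. On the putative unruptured side the relations of Acta2 with Tpm1 (r = 0.641) and Tpm2 (r = 0.633) rested on the 2 farthest libraries, since r was 0.0988 and 0.114 without them. Myl9 and Acta2 passed in none of the 4 groups, with r from 0.281 to 0.452.

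The genes whose pattern was most like that of Acta2, by Pearson's r of log2 CPM over 54 libraries after each group's mean was subtracted, were Igfbp7 (r = 0.763), Cygb (0.749), Cnn2 (0.744), Nes (0.742) and Fstl1 (0.733) of 10007 genes that are not members. The libraries share depth and dissection, so this is a description. With the members included, Cald1 ranked 1, Tpm1 4, Tpm2 54, Mylk 346 and Myl9 432 of 10012 genes, and the collagen genes Col1a1 and Col1a2 ranked 12 and 15.

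**Figure D4:**
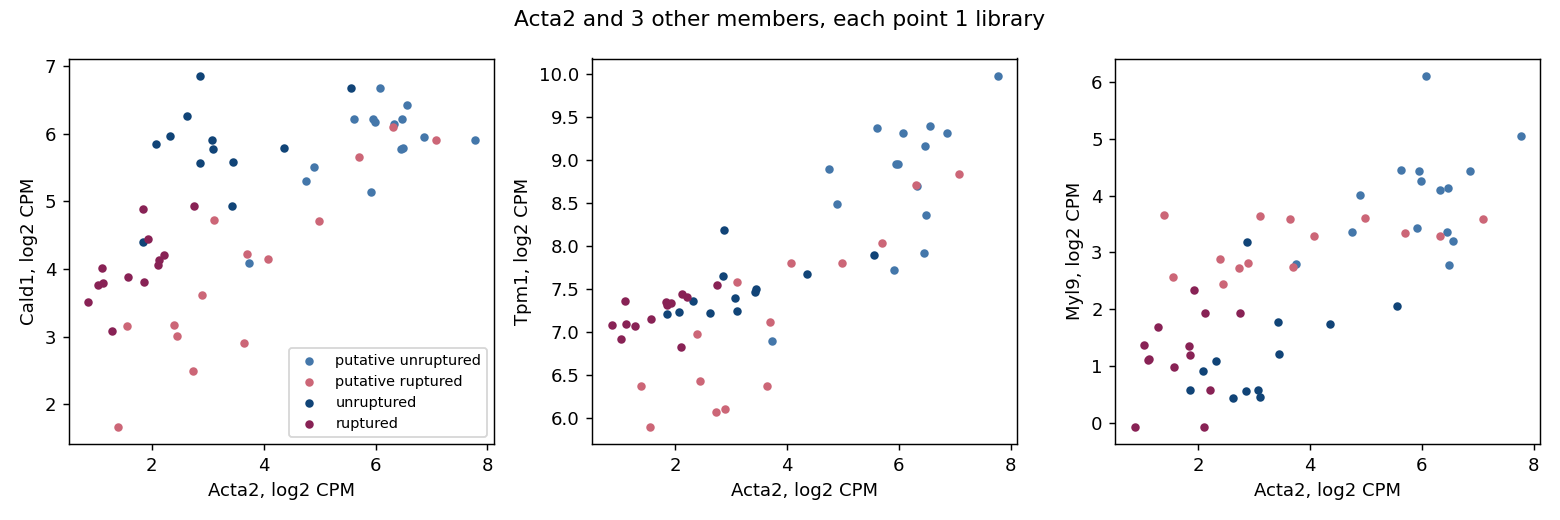
Acta2 against other members in log2 CPM, where each point is 1 library coloured by group. On the putative ruptured side r is 0.897 for Cald1, 0.892 for Tpm1 and 0.452 for Myl9.

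Of 15 other structural genes of smooth muscle, 2 were higher and 2 lower with hCG of 6 tested on the unruptured side, and 2 were higher and 1 lower of 5 tested on the ruptured side. Of all tested genes 25.4% were higher and 27.7% lower on the unruptured side, and 29.7% and 30.4% on the ruptured side, so that calls in either direction, 4 of 6 and 3 of 5, were about as frequent as among all genes. Synm, an intermediate filament protein, went from at most 0.77 TPM in any library without hCG to at least 4.08 TPM in any library post-hCG, so the groups did not overlap. It was 31.8-fold higher on unruptured (log2FC 4.99 ± 0.18, FDR 1.8e-20) and 32.1-fold higher on ruptured sides (log2FC 5.0 ± 0.25, FDR 1.46e-17). The share of tested genes that were separate and higher was 3.82% and 3.43%. Smtn, smoothelin, was also higher on both sides (log2FC 2.03 ± 0.18 and 2.33 ± 0.19), and Fhl1, a LIM domain protein, was lower on both (log2FC -2.46 ± 0.27 and -3.18 ± 0.22). Csrp1, another LIM protein of the actin cytoskeleton, was lower on the putative ruptured side (log2FC -1.48 ± 0.26, FDR 0.000134) and on the ruptured side (log2FC -1.47 ± 0.27, FDR 0.000139), as 1 of 5 and 1 of 6 listed genes tested, against 8.96% and 11.3% of all tested genes.

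Receptors and channels that act on contraction seldom passed the filter. Of 22 listed, 3 were higher and 3 lower with hCG of 7 tested on the unruptured side, and 3 were higher and 1 lower of 4 tested on the ruptured side, against 25.4% of all tested genes higher and 27.7% lower on the former side and 29.7% and 30.4% on the latter. Oxtr, the oxytocin receptor, had medians of 0.25 and 0.195 TPM in putative unruptured and putative ruptured libraries and 1.91 and 3.89 TPM post-hCG. It was 6.11-fold higher with hCG on unruptured (log2FC 2.61 ± 0.3, FDR 1.23e-08) and 17.8-fold higher on ruptured sides (log2FC 4.16 ± 0.23, FDR 1.23e-16). Post-hCG it was higher on the ruptured than on the unruptured side (log2FC 1.11 ± 0.18, FDR 3.26e-05), as were 10% of tested genes, and its interaction was 1.55 ± 0.43 (FDR 0.0161). Ptgfr, the prostaglandin F receptor, was 21.4-fold and 24.7-fold higher, from medians of 0.03 and 0.025 TPM to 2.23 and 2.57 TPM. Itpr1, a calcium release channel, was higher on both sides (log2FC 2.01 ± 0.15 and 1.56 ± 0.15). Ptger3, a prostaglandin E receptor, was lower on the putative ruptured side (log2FC -1.61 ± 0.38, FDR 0.00299), 1 of 5 listed genes tested against 8.96% of all tested genes, with medians of 0.54 TPM there and 2.31 TPM on the putative unruptured side. It did not pass within row G (log2FC -0.85). Ednra, the endothelin A receptor, was called lower with hCG on both sides. Its medians were 3.97 and 1.115 TPM in putative unruptured and unruptured libraries, and 3.625 and 0.64 TPM in putative ruptured and ruptured ones. On the ruptured side its log2FC with hCG was -2.4 ± 0.2 (FDR 3.43e-12).

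Among regulators of myosin light chain phosphorylation, 2 were higher and 6 lower with hCG of 13 tested on the unruptured side, and 4 were higher and 3 lower of 13 tested on the ruptured side. Of all tested genes 25.4% were higher and 27.7% lower on the unruptured side, and 29.7% and 30.4% on the ruptured side, so that calls in either direction, 8 and 7 of 13, were about as frequent as among all genes. Calm2, a calmodulin gene, was lower (log2FC -1.13 ± 0.15 and -1.52 ± 0.14), as was Ppp1r12a, the targeting subunit of myosin phosphatase (log2FC -0.96 ± 0.11 and -1.0 ± 0.1). Camk2g, a calmodulin-dependent kinase, was higher (log2FC 1.04 ± 0.09 and 0.89 ± 0.13). Dapk3, a kinase that can phosphorylate myosin light chain, was higher on the ruptured side both with hCG (log2FC 1.59 ± 0.26, FDR 3.16e-06) and against the unruptured side post-hCG (log2FC 1.04 ± 0.33, FDR 0.0224). Ppp1r14a, an inhibitor of myosin phosphatase singled out after its values were seen, was too low for the filter with hCG. It had 13 and 6 counts over the groups without hCG and 128 and 213 post-hCG, at medians of 0, 0, 4.1 and 5.25 TPM, and was higher in the fit without the filter on unruptured (log2FC 3.73 ± 0.48, FDR 4.7e-08) and ruptured sides (log2FC 4.85 ± 0.4, FDR 4.98e-13).

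Of the cofactors and targets of SRF, 14 of 18 listed symbols were in the tables. Myocd, the SRF coactivator that drives smooth muscle genes, was higher on the putative ruptured side, with medians of 5.88 TPM there and 2.8 TPM on the putative unruptured side (log2FC 1.6 ± 0.44, FDR 0.00941), against 8.84% of tested genes that were higher. It did not pass within row G (log2FC 1.2) or with limma on log2(TPM + 1) and log2(TPM + 0.1) (log2FC 0.68 and 0.8). Post-hCG it had 1 count in the 12 unruptured libraries and 4 counts in the 13 ruptured libraries, against 329 and 676 counts without hCG. On the ruptured side it was lower with hCG (log2FC -6.84 ± 0.69, FDR 2.78e-10). Of the other coactivators Mkl1 was higher (log2FC 1.1 ± 0.11 and 1.28 ± 0.12) and Mkl2 lower (log2FC -0.62 ± 0.14 and -1.06 ± 0.1) on the unruptured and ruptured sides. Ctgf and Cyr61, secreted matrix proteins, were 7.6-fold and 4.17-fold lower on unruptured and 9.84-fold and 3.87-fold lower on ruptured sides. Vcl, vinculin, was higher (log2FC 0.62 ± 0.12 and 0.79 ± 0.14) and Flna, filamin A, lower (log2FC -0.62 ± 0.11 and -0.75 ± 0.12). In all, 3 were higher and 6 lower of 11 tested on the unruptured side, and 4 and 6 of 11 on the ruptured side, against 25.4% of all tested genes higher and 27.7% lower on the former side and 29.7% and 30.4% on the latter.

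**Figure D5:**
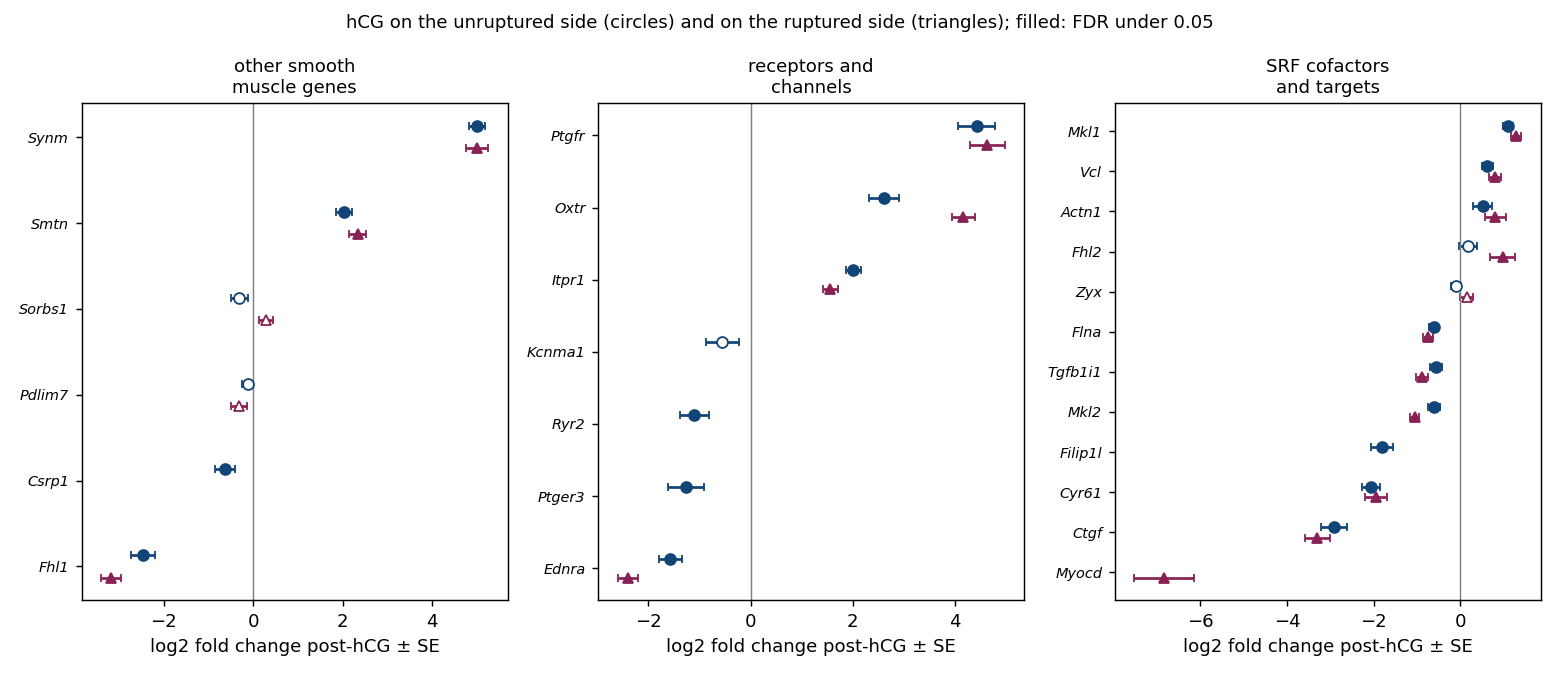
Log2 fold change with hCG (± SE) of the listed structural genes, receptors and channels, and SRF cofactors and targets that passed the filter, on the unruptured (circles) and ruptured (triangles) side. Synm lies at 4.99 and 5.0, Ptgfr at 4.42 and 4.63, and Ctgf at -2.93 and -3.3.

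Most tested markers of fibroblasts and stroma were lower on the putative ruptured and ruptured sides. Medians of the summed stroma, pericyte and immune markers were lower in the second group of each of the 4 comparisons, as was the median of Acta2. Those of endothelial and granulosa markers were lower in some comparisons only, and that of the whole theca list in none. Summed TPM of 9 fibroblast and stroma markers was 547 (50.9 to 2789) in putative unruptured, 142 (65.1 to 626) in putative ruptured, 311 (106 to 1362) in unruptured and 44.4 (25.6 to 88.5) in ruptured libraries, as the median and range. Of these genes 6 were lower and 1 higher of 7 tested between the sides without hCG (against 8.96% and 8.84% of all tested genes), and 5 lower and 1 higher of 6 post-hCG (against 11.3% and 10%). With hCG, 4 were lower and 0 higher of 7 tested on the unruptured side, against 27.7% of all tested genes lower. On the ruptured side 4 were lower and 0 higher of 4 tested, against 30.4% lower. In the same order of groups, the 9 genes of the whole theca list summed to 1486 (761 to 5115), 3529.9 (1237 to 6596), 8780.4 (6089 to 10693) and 10502 (6379.8 to 14759.9) TPM, with higher medians post-hCG. That list holds Star, Lhcgr, Hsd3b1 and Cyp11a1, genes of steroid synthesis and the LH receptor that luteinizing granulosa cells also use. Without these, 5 theca-defining markers (Cyp17a1, Insl3, Gli1, Ptch1 and Nr2f2) summed to 43.8 (12.6 to 308), 8.91 (2.99 to 192), 43.3 (4.28 to 80.4) and 3.4 (1.98 to 6.14) TPM, with the median nearly level between putative unruptured and unruptured libraries, and Cyp17a1, the androgen-producing enzyme of the theca, was at 0 in all 13 ruptured libraries. The 7 pericyte markers summed to 5.52 (1.51 to 12.5), 1.73 (0.04 to 7.75), 4.24 (1.5 to 10.4) and 0.84 (0.23 to 1.85) TPM, with Higd1b at 0 in every library and Rgs5 at 0 in all post-hCG libraries.

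Granulosa markers, 10 genes, went the other way between the sides without hCG, with 4316 (1707 to 8063), 15799.5 (6845 to 24652), 1959 (1224 to 2598) and 1925 (1229.8 to 2858) TPM in the same order. The 8 endothelial markers summed to 9.83 (2.35 to 21.0), 4.09 (1.63 to 15.3), 18.8 (5.73 to 34.7) and 12.2 (4.82 to 24.9) TPM, where the medians were higher post-hCG and those of the members on the unruptured side lower. The 8 immune markers summed to 33.9 (0 to 164), 3.09 (0 to 38.9), 13.6 (0.86 to 101) and 0.44 (0 to 3.24) TPM. The part of these cells in the differences of the members was not tested.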

How the data were processed

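RNA of 54 microdissected follicle sides had been made into Smart-Seq2 and Nextera XT paired-end libraries. The authors aligned reads with HISAT2 to GRCm38, applied ComBat-seq and deposited estimated counts and TPM per coding gene, and the counting program and whether the deposited counts precede batch correction are not given in the sources used here. Of the nonzero deposited counts 72.2% were whole. After rounding, edgeR 4.0.16 under R 4.3.3 compared the counts (TMM, quasi-likelihood, at least 10 counts in enough libraries and 15 in total, FDR 0.05), with DESeq2 1.42.0 and limma 3.58.1 on log2(TPM + 1) as alternatives. The 2 groups compared entered each fit, and all 4 entered the interaction. Ratios and correlations used log2(TPM + 1) and log2 CPM (prior count 2) with 100000 resamples in numpy 2.4.6, and ranks from scipy 1.17.1. Scripts were tested on simulated data. The members and the gene lists were chosen with earlier results of these data known. All members were named, and of each list at most the 4 called genes with the largest log2FC in a comparison, besides any SRF gene, the 5 genes most like Acta2 and Ppp1r14a, which was singled out afterwards. A result on 1 regulator of contraction is not reported here. Columns not matched to a sample numbered 0. Floors of 3 counts cover counting error only. Total counts of 1497138 to 2834794 per library limit the precision of genes with few counts.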

Additional observations from a re-analysis of the deposited data

Results flagged for a closer look

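The side difference of 3 genes differed between the media by the edgeR interaction test, each with a positive interaction. They were 1 of 6 members, 1 of 7 receptors and channels and 1 of 13 relatives tested. Of 6 other structural genes, 14 regulators and 12 SRF cofactors and targets tested, 0 were called. Of all 10013 genes tested, 4.25% had a positive call. For Tpm1, a tropomyosin, the log2FC of ruptured against unruptured sides went from -1.47 without hCG to -0.31 post-hCG, an interaction of 1.17. That of Tpm1 did not pass with library totals alone or with limma at either pseudocount. For Oxtr, the oxytocin receptor, the interaction was 1.55, with a side log2FC of 1.11 post-hCG. For Cnn2, the calponin used by non-muscle cells, the interaction was 1.43. Cnn2 had a side log2FC of -1.45 without hCG and was not called between the sides post-hCG. Medium and plate row cannot be told apart in these values.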

How the results depend on the processing

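Between the sides without hCG, 0 members were called within plate row G against 5 in all rows, and 4 to 5 when single libraries were left out. Between the sides post-hCG, 2 were called, and 1 with the replicate block, within plate row C or without the 4 libraries that stood apart, and 1 to 2 when single libraries were left out. With hCG on the ruptured side, 0 were called, against 4 with no filter, 4 with DESeq2, 4 with all groups in the fit, 3 with limma at either pseudocount and 1 at a mean of at least 20 counts. For the interaction, 1 was called, against 0 with library totals, 0 with limma at either pseudocount and 2 without the 4 libraries. Of the ratios to relatives, 12 of 23 passed, and 5 of 8 at a mean of at least 10 TPM, where fewer pairs were tested. Of the correlations with Acta2, 8 passed, and 2 on log2(TPM + 1). The causes were not tested except where stated.

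Signs changed for values that had not passed the test, and for Camk2g. Between the sides post-hCG, Myl9 went to 0.33 without the 4 libraries and without unruptured 4 alone, and Camk2g to -0.27 with limma at either pseudocount. With hCG on the unruptured side, Tpm2 went to -0.03 with library totals, and Cald1 to 0.00 with thinned counts and 0.10 with limma at either pseudocount. For the interaction, Acta2 went to 0.86 and 0.54 with limma, and Mylk to 0.20 without the 4 libraries. Between the sides post-hCG, the ratio of Tagln to Tagln2 went to -1.05 with a pseudocount of 0.1 and -0.21 with counts, and that of Myl9 to Myl12a to -0.29 and -0.09. Library totals moved the median log2FC of all genes to -0.25 (unruptured) and -0.33 (ruptured) with hCG, with 1455 genes higher and 3844 lower, and 1376 and 4242, against 2365 and 2582, and 2532 and 2597, by TMM. Between the sides post-hCG the median was -0.14, with 397 higher and 1830 lower against 862 and 971.

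Replicate numbers were not used to pair the libraries in the main fits. Deviations of same-numbered libraries from their group means correlated over 0.1 in 2 of 14, 3 of 12, 1 of 12 and 3 of 13 pairs. This cannot decide whether such libraries came from the same follicle, since its sides need not vary together. With the number as a block, Tpm1 between the sides post-hCG had log2FC -0.30, and 5 members were called between the sides without hCG. Members with few counts per library, above all Myh11 and Cnn1, could not be compared at this depth.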
